A study of Mus musculus with 15 samples.

Results

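Reactive oxygen species and electrophiles are removed from kidney cells by a small set of enzyme families, and 54 of the 33058 named genes of the transcript table belong to them. The genes taken were every gene whose name starts with Gst (glutathione S-transferases), Gpx (glutathione peroxidases) or Prdx (peroxiredoxins), together with the superoxide dismutases Sod1, Sod2 and Sod3, catalase (Cat), the glutathione enzymes Gclc, Gclm, Gss and Gsr, thioredoxin (Txn1), thioredoxin reductase (Txnrd1), Nqo1, Hmox1, Nfe2l2 and Keap1. The choice used gene names and no measured value, but it was made with earlier results of these data known. By role there were 25 transferases, 8 glutathione peroxidases, 7 peroxiredoxins, 4 genes of glutathione synthesis and recycling, 4 dismutases and catalase, 2 thioredoxin genes and 4 genes of the NRF2 pathway.

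Kidney RNA from 15 male C57BL/6 mice (C57BL/6J in the methods) was sequenced, with 1 library per mouse, and the ages were 3, 12 and 24 months, with 5 animals in every age group. No allele and no treatment that differs between the ages is named in the labels. The methods describe the young and old mice, which were given urethane, gave part of 1 kidney each and were killed on a shared day, while the hour, and the handling of the 12-month-old mice, were not given in the sources used here. The sample titles begin with 3M at every age and differ from the age labels of the 12- and 24-month-old mice, and the age labels, which the value columns also carry, were used. The mice keep the numbers of their titles, which are 5 to 9 at 3 months, 17 to 21 at 12 months and 31 to 35 at 24 months.

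Glutathione is built from glutamate, cysteine and glycine in 2 ATP-dependent steps, the first of which is limiting. Glutathione peroxidases use it to reduce hydrogen peroxide and lipid peroxides, transferases couple it to electrophiles, and glutathione reductase returns the oxidized form with NADPH. Superoxide dismutases, catalase and the thioredoxin-driven peroxiredoxins act beside it. Under oxidant or electrophile stress, the transcription factor NRF2 (Nfe2l2) escapes its adaptor Keap1 and raises many of these genes through antioxidant response elements in their promoters. The kidney proximal tubule is rich in these enzymes and secretes Gpx3, the peroxidase of blood plasma.

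All 8 proximal tubule marker genes were measured, with a sum of 1727 to 2208 FPKM per 3-month-old mouse and 1624 to 1968 per 24-month-old mouse, and the thick limb and distal markers Umod, Slc12a1 and Slc12a3 summed to between 1112 and 1332 FPKM in these mice, so the tissue label matched its markers. FPKM is the number of fragments per kilobase of transcript, scaled to the fragments mapped in the library, and a gene value is the sum over its transcripts. Each library held 5.03 to 6.13 gigabases of aligned sequence at 3 months, 5.84 to 8.03 at 12 months and 6.07 to 7.33 at 24 months. The 3-month-old mice had fewer genes above 0 (23354 to 24198) than the mice of 12 (24462 to 25350) and 24 months (24747 to 25435). The part of depth and of the number of detected genes in the differences between ages was not tested. In whole kidney, fewer cells of a type and less RNA per cell cannot be told apart.

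The stretches shown next carry the core of the antioxidant response element, TGACNNNGC, in the promoters of members. A promoter is taken here as the 250 bases before to 50 bases after a transcription start in RefSeq (build GRCm38.p6), and 43 of the 54 members had one. Either strand was searched. The core was present in a promoter of 8 of these 43 members (18.6%), beside 14% of all 27025 genes with a promoter in the same table. Each sequence runs 5′ to 3′ on the strand of the gene, up to 30 bases stand on each side of the match, and the match is in capitals.
Gclm: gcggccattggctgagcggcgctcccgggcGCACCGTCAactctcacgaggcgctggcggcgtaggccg
Gsta3: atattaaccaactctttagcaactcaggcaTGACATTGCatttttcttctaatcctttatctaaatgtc
Gstm5: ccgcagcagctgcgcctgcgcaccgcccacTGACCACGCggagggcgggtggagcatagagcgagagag
Gstm7: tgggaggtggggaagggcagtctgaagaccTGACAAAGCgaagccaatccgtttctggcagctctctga
Nfe2l2: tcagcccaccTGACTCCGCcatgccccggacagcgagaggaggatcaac
Prdx1: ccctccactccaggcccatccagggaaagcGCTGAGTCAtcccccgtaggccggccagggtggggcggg
Sod1: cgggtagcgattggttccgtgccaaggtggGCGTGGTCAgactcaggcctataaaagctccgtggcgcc
Txnrd1: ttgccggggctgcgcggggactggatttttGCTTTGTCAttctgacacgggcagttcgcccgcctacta

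The matches of Gclm, Prdx1, Sod1 and Txnrd1 read as the core on the strand opposite to the gene, so that capitals such as GCTGAGTCA in Prdx1 are the reverse complement of TGACTCAGC. Txnrd1 (chr10:82859084-82859152, plus strand), Prdx1 (chr4:116685436-116685504, plus strand) and Gclm (chr3:122245393-122245461, plus strand) carry their matches 92, 133 and 134 bases before the start. In Gstm7 (chr3:107931705-107931773, minus strand) the distance was 129 bases. The fixed-letter form TGACTCAGC was found in 1 of the 43 members, Prdx1 (2.33%), beside 0.503% of all genes, and the core followed by a further base, A, in 2, Gsta3 and Txnrd1 (4.65%, beside 3.45%). Both forms overlap the core by construction. A match describes letters in this window and no binding was measured. Members without an entry in the table were Hmox1, Gclc, Gsr, Gsta4, Gstt2, Prdx6, Prdx6b, Sod3, Gpx2-ps1, Gstp-ps and Gstm2-ps1.

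Together the members took 3.44% to 5.24% of the gene FPKM of a mouse, most of it from Gpx3, and 1.01% to 1.27% without Gpx3. Of the 54 members, 45 had a mean of at least 1 FPKM over the 15 mice (83.3%, beside 40.7% of all named genes), 36 of at least 10 and 7 of at least 100. Those 7 were Gpx3, Gpx4, Cat, Prdx5, Gstm1, Prdx1 and Sod1. The 9 members under 1 FPKM were Gpx2, Gpx2-ps1, Gpx7, Gstm2-ps1, Gstm3, Gsto2, Gstp3, Gstt4 and Prdx6b. FPKM is scaled to transcript length, so levels can be compared between genes only as far as reads were assigned to the right transcripts.

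**Figure D1:**
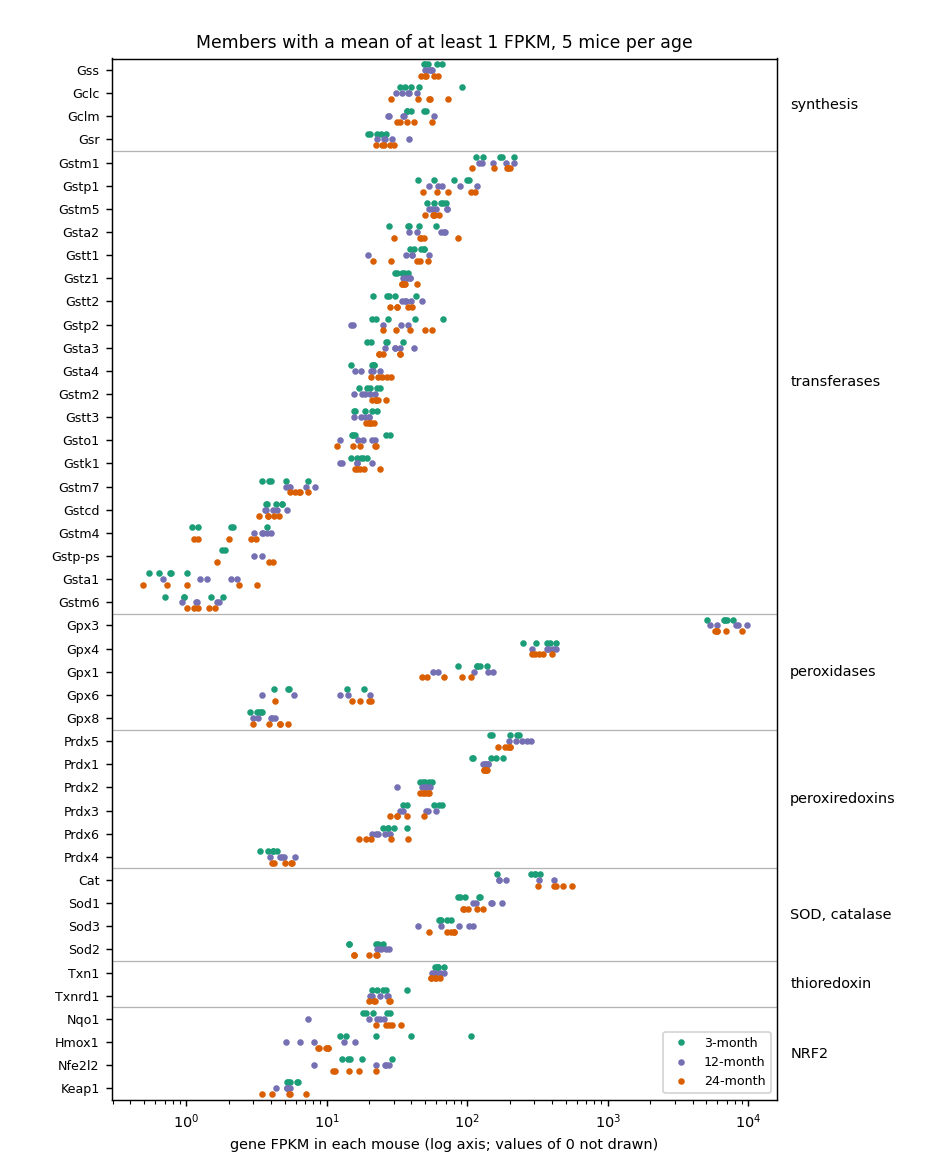
Gene FPKM (x axis, log scale) of the 45 members with a mean of at least 1 FPKM, grouped by role. Each point is 1 mouse, colored by age. Gpx3 stands at the right edge, and in most members the 3 ages overlap, while Hmox1 of 3-month-old mouse 5 lies at 105 FPKM, apart from the other mice.

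The main comparison was between the 24- and the 3-month-old mice. All 54 members were above 0 in at least 1 of these 10 mice and were tested with limma among 31755 genes. At an unadjusted p under 0.05, called the limit in what follows, 8 members (14.8%) passed, beside 14.9% of all genes tested. Higher at 24 months were 5 members, Cat, Gpx8, Gsta4, Gstm7 and Prdx4 (9.26%, beside 11.4% of all genes), and lower were 3, Gpx1, Hmox1 and Prdx3 (5.56%, beside 3.47%). No member passed an adjusted p under 0.05 in limma (1.22% of all genes did), and the smallest adjusted p of a member was 0.181. With the additional limit of an absolute log2 fold change above 1, 1 member remained, Hmox1 (1.85%, beside 0.523%). The median log2 fold change was 0.020 over the members, with 32 of 54 above 0, and 0.020 over all genes. The median absolute log2 fold change was 0.12 for the members and 0.083 for all genes.

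**Figure D2:**
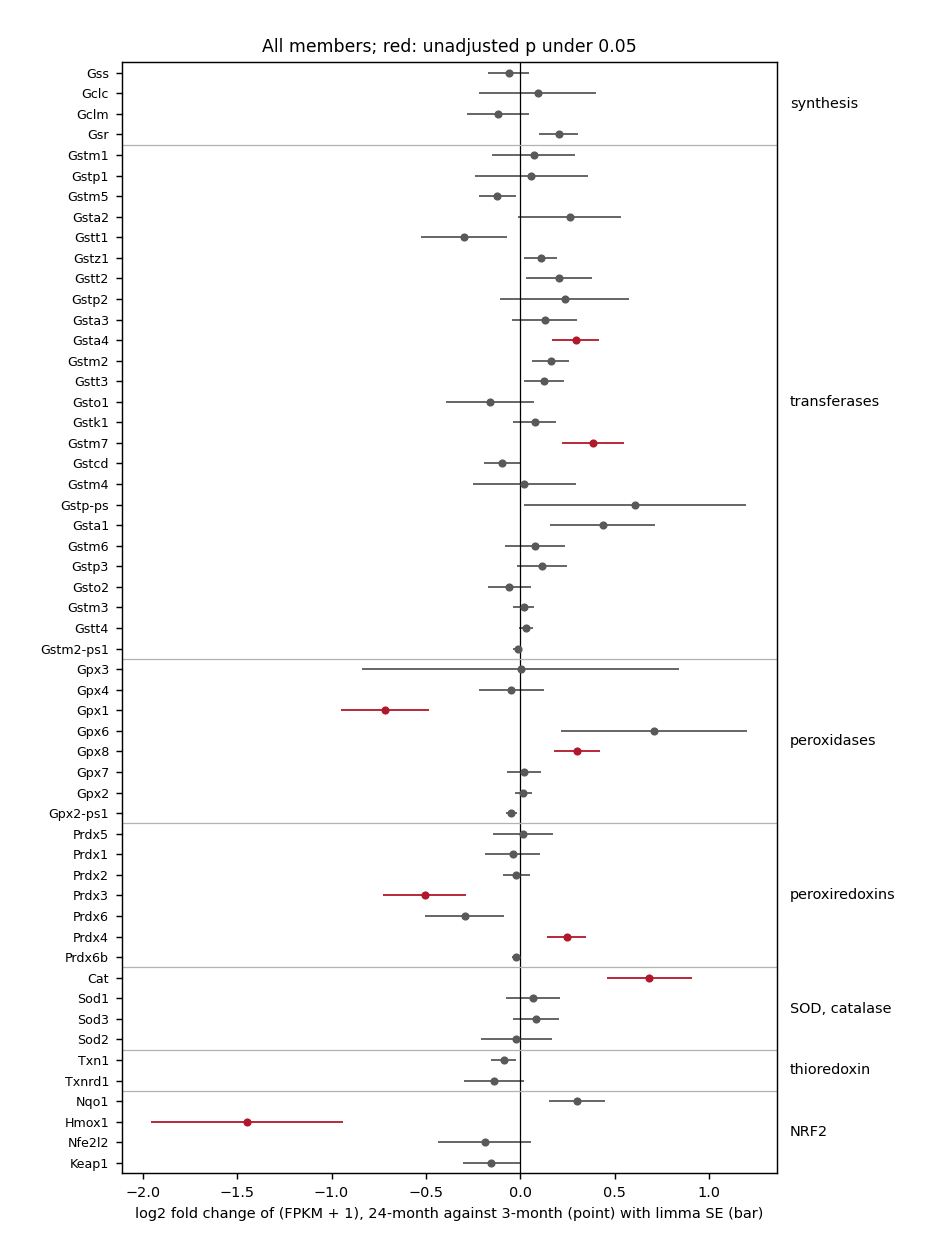
Log2 fold change of FPKM + 1 between 24- and 3-month-old mice for all 54 members (points) with the limma standard error (bars), grouped by role; red marks an unadjusted p under 0.05. The members lie on both sides of 0 in each of the larger families, from -1.45 for Hmox1 to 0.71 for Gpx6.

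Glutathione synthesis showed no member past the limit between 3 and 24 months. Gss, glutathione synthetase (chromosome 2, 155562647 to 155592810), was the most abundant of the 4 genes, with FPKM of 65.96, 49.2, 60.4, 50.3 and 52.6 in the 3-month-old mice, 55.3, 49.8, 52.3, 55.3 and 55.8 in the 12-month-old mice and 61.6, 57.5, 50.4, 46.7 and 49.9 in the 24-month-old mice. The ages overlapped throughout (log2 fold change -0.062 ± 0.11 SE, limma unadjusted p = 0.575 and adjusted p = 0.804). For Gclc, the catalytic subunit of the limiting ligase, the levels were 91.6, 39.5, 45.1, 33.02 and 35.8 in the 3-month-old mice, 43.4, 38.6, 30.9, 37.99 and 34.3 in the 12-month-old mice and 72.6, 44.4, 53.00, 54.6 and 28.7 in the 24-month-old mice. Mouse 5 stood far above the other 3-month-old mice, and without it the ages still overlapped, with mouse 31 the highest and mouse 35 the lowest of the 24-month-old mice (log2 fold change 0.091 ± 0.31 SE, limma unadjusted p = 0.775 and adjusted p = 0.906). Gclm, the ligase modifier subunit, had means of 42.9 ± 6.72 (SD) at 3 months and 39.95 ± 9.79 at 24 months, and Gsr, glutathione reductase, 22.6 ± 2.77 and 26.2 ± 2.93 FPKM (log2 fold change 0.20 ± 0.10 SE, limma unadjusted p = 0.0759 and adjusted p = 0.401).

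Among the glutathione peroxidases, Gpx1 was lower and Gpx8 higher at 24 months. Gpx3 (chromosome 11, 54902133 to 54910377) was the most abundant of all named genes in these kidneys, with FPKM of 5042, 7785, 7091, 6661 and 6854 in the 3-month-old mice, 5363, 5929.8, 8473, 9718 and 8104 in the 12-month-old mice and 5929, 8984, 5791, 5953 and 6944 in the 24-month-old mice. Mouse 20, at 12 months, was the highest and mouse 5 the lowest, and the ages overlapped (means of 6686 ± 1013, 7518 ± 1821 and 6720.1 ± 1346, SD). Its log2 fold change between 24 and 3 months was 0.0010; the limma SE of 0.84 is that of a variance trend at the upper end of expression, and without the trend the unadjusted p was 0.995.

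Gpx1, the cytosolic and mitochondrial selenium-dependent peroxidase (chromosome 9, 108338903 to 108340343), had FPKM of 118, 86.1, 116, 137 and 123 in the 3-month-old mice, 140.2, 62.04, 56.8, 112 and 152 in the 12-month-old mice and 51.7, 68.1, 106, 47.6 and 91.02 in the 24-month-old mice. Of the 24-month-old mice, 31, 32 and 34 were below all 3-month-old mice, while 33 and 35 were within the range of the young mice, and at 12 months mice 18 and 19 were low and 17 and 21 high. The difference was log2 fold change -0.72 ± 0.23 SE, limma unadjusted p = 0.012 and adjusted p = 0.181. It kept its sign and passed the unadjusted limit with each mouse left out in turn (log2 fold changes between -0.87 and -0.58). By transcript, the principal annotated form ENSMUST00000082429 had a mean of 82.7 FPKM at 3 months and 46.4 at 24 months.

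Gpx8, a peroxidase of the endoplasmic reticulum (chromosome 13, 113042630 to 113046390), was low, with 2.85, 3.296, 3.403, 3.19 and 3.45 in the 3-month-old mice, 4.09, 3.25, 2.995, 4.03 and 4.25 in the 12-month-old mice and 4.61, 2.97, 4.65, 3.85 and 5.26 in the 24-month-old mice. Only mouse 32 of the 24-month-old mice was within the 3-month range (log2 fold change 0.30 ± 0.12 SE, limma unadjusted p = 0.0357 and adjusted p = 0.29). Its assembled transcript MSTRG.10569.1 was at a mean of 0.652 FPKM at 3 months and 2.13 at 24 months, while the annotated transcript had 2.59 and 2.14. Summed over annotated transcripts alone, the difference turned to -0.21, and with any 1 of 3-month-old mice 5, 6 or 8 or 24-month-old mice 31, 33 or 35 left out the difference no longer passed the limit, at log2 fold changes between 0.23 and 0.30.

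The other peroxidases did not pass the limit. Gpx4, which reduces lipid hydroperoxides in membranes, had 347 ± 69.2 FPKM at 3 months and 333 ± 43.1 at 24 months (SD). Gpx6 spanned 4.19 to 18.4, 3.45 to 20.3 and 4.24 to 20.6 FPKM at the 3 ages, a spread between mice of 1 age wider than most members (log2 fold change 0.71 ± 0.49 SE, limma unadjusted p = 0.184 and adjusted p = 0.561). Gpx7, the second peroxidase of the endoplasmic reticulum, was at 0.2301 ± 0.136 and 0.245 ± 0.121 FPKM, and Gpx2, the gut form, and its pseudogene Gpx2-ps1 were near 0.

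The glutathione S-transferases had 25 members, and 20 of them a mean of at least 1 FPKM. They are encoded in clusters, with the 7 mu genes between 107895821 and 108044894 on chromosome 3, the 3 pi genes between 4035406 and 4059446 on chromosome 19, the 4 theta genes between 75774115 and 75837424 on chromosome 10, and Gsta4, Gsta1 and Gsta2 on chromosome 9. Within a class the copies differ in how close they are, from 58.5% identity of the coding sequences for Gstt2 and Gstt4 to 98.1% for Gstp1 and Gstp2. The sequences of Gstp1 and Gstp2 shared an unbroken equal run of 300 bases, and those of Gsta1 and Gsta2, at 97.6% identity, a run of 196 bases, so reads from these pairs can be divided between the copies by the assembly, and their single values are uncertain. Gstm1 and Gstm3 were 89.4% identical. The assembled Gstp2 transcripts reach into Gstp1.

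At 24 months 2 of the 25 transferases were higher (8%, beside 11.4% of all genes) and none lower (beside 3.47%), and the median log2 fold change of the 25 was 0.076. Gsta4, which conjugates the lipid peroxidation product 4-hydroxynonenal (chromosome 9, 78182774 to 78209349), had FPKM of 21.4, 21.6, 14.9, 20.99 and 21.7 in the 3-month-old mice, 23.9, 17.5, 15.8, 21.3 and 20.5 in the 12-month-old mice and 24.6, 23.01, 28.7, 26.8 and 20.7 in the 24-month-old mice. The 3-month-old mice other than mouse 7 lay between 20.99 and 21.7, and mice 31 to 34 were above all of them. It gave log2 fold change 0.29 ± 0.12 SE, limma unadjusted p = 0.0399 and adjusted p = 0.303, and with any 1 of 3-month-old mice 7 or 8 or 24-month-old mice 31, 33 or 34 left out the difference no longer passed the limit, at log2 fold changes between 0.19 and 0.31.

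Gstm7 (chromosome 3, 107926334 to 107931850), a mu class enzyme of low abundance whose promoter is shown, had 3.87, 7.29, 3.46, 5.08 and 3.99 in the 3-month-old mice, 5.498, 5.12, 5.36, 8.21 and 7.05 in the 12-month-old mice and 5.495, 7.38, 5.94, 6.35 and 6.48 in the 24-month-old mice. Mouse 6 was high among the 3-month-old mice and within the range of the 24-month-old mice, and the other 3-month-old mice were below all of these. The fit gave log2 fold change 0.39 ± 0.16 SE, limma unadjusted p = 0.041 and adjusted p = 0.307, and with any 1 of 3-month-old mice 5, 7 or 9 or 24-month-old mice 32, 33, 34 or 35 left out the difference no longer passed the limit, at log2 fold changes between 0.30 and 0.40.

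The most abundant transferase of each class did not differ past the limit. Gstm1, the main mu enzyme, had FPKM of 215, 177, 129.8, 116 and 171 in the 3-month-old mice, 126, 189, 121, 215 and 153 in the 12-month-old mice and 109, 189.9, 202, 195 and 154 in the 24-month-old mice. Ranges overlapped at all ages (log2 fold change 0.071 ± 0.22 SE, adjusted p = 0.897). Gstp1 of the pi class had 102, 99.9, 79.9, 57.5 and 44.3 in the 3-month-old mice, 61.3, 66.00, 53.6, 88.2 and 116 in the 12-month-old mice and 48.6, 106, 72.5, 60.8 and 112 in the 24-month-old mice, with an SD of about 26 to 28 FPKM around means near 77 to 80 at each age. In the alpha class Gsta2 had 38.4, 59.9, 37.9, 45.2 and 27.8 in the 3-month-old mice, 67.9, 38.6, 69.3, 44.02 and 64.96 in the 12-month-old mice and 86.02, 49.3, 46.9, 46.2 and 30.1 in the 24-month-old mice, and mouse 31 was its highest mouse (log2 fold change 0.26 ± 0.27 SE, limma unadjusted p = 0.36 and adjusted p = 0.677).

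Gstt1, the main theta enzyme, had 39.3, 46.8, 41.7, 49.5 and 48.8 in the 3-month-old mice, 19.5, 40.6, 40.4, 53.1 and 36.4 in the 12-month-old mice and 28.5, 52.1, 43.5, 21.4 and 46.2 in the 24-month-old mice. The 3-month-old mice were close together, whereas mouse 17 at 12 months and mice 31 and 34 at 24 months were at or below 28.5 (log2 fold change -0.30 ± 0.23 SE, limma unadjusted p = 0.216 and adjusted p = 0.599). Gsto1, an omega enzyme that also reduces dehydroascorbate, had 15.4, 26.4, 15.2, 15.8 and 28.1 in the 3-month-old mice, 12.4, 20.8, 21.97, 16.7 and 18.01 in the 12-month-old mice and 15.2, 17.2, 22.1, 11.8 and 22.4 in the 24-month-old mice, with mice 6 and 9 above the other 3-month-old mice. Gstz1, the zeta enzyme of tyrosine breakdown and the most abundant outside those classes, had 35.7, 37.8, 31.8, 34.2 and 30.5 in the 3-month-old mice, 36.7, 39.2, 34.6, 38.97 and 37.1 in the 12-month-old mice and 34.1, 43.96, 36.1, 34.2 and 35.5 in the 24-month-old mice. Its 3-month range and its 24-month range overlapped except for mouse 32 (log2 fold change 0.11 ± 0.088 SE, limma unadjusted p = 0.25 and adjusted p = 0.639).

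The transferases not yet named had log2 fold changes between -0.12 (Gstm5) and 0.61, the upper end being the pseudogene Gstp-ps. Gstp2 spanned 21.04 to 67.5 FPKM at 3 months with mouse 5 the highest, and 24.99 to 55.7 at 24 months. Gstm5, Gstm2, Gstt2, Gstt3, Gsta3 and Gstk1 had means between 15.7 and 62.4 FPKM at every age, Gstcd, Gstm4 and Gstm6 between 1.19 and 4.27, and Gsta1 between 0.748 and 1.55.

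Among the peroxiredoxins, Prdx3 was lower and Prdx4 higher at 24 months. Prdx5 (chromosome 19, 6906697 to 6910106), found in mitochondria, peroxisomes and cytosol, was the most abundant, with 235, 149, 224, 145 and 200.5 in the 3-month-old mice, 222, 266, 283, 196 and 244 in the 12-month-old mice and 202, 164, 184, 196 and 202 in the 24-month-old mice. Mice 6 and 8 were the lowest of all, and the 12-month-old mice 18, 19 and 21 were above every mouse of the other ages (log2 fold change 0.014 ± 0.16 SE, limma unadjusted p = 0.93 and adjusted p = 0.974). Prdx1, the main cytosolic form, had 3-month values of 178, 110.5, 161, 108 and 147, and values within 131 to 137 at 24 months. The SD was 2.51 FPKM at 24 months against 30.97 at 3 months. In covered bases per megabase of aligned bases, not divided by transcript length, its values were 217 to 330 at 3 months and 228 to 272 at 24 months.

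Prdx3, the mitochondrial form (chromosome 19, 60864051 to 60874556), had 65.7, 34.8, 58.1, 37.2 and 62.3 in the 3-month-old mice, 59.5, 34.8, 50.9, 52.1 and 33.3 in the 12-month-old mice and 49.4, 37.1, 31.8, 31.4 and 27.95 in the 24-month-old mice. Among the 3-month-old mice 5, 7 and 9 were high and 6 and 8 low, and the 24-month-old mice other than mouse 31 were at or below 37.1. Over all mice the difference was log2 fold change -0.51 ± 0.22 SE, limma unadjusted p = 0.0438 and adjusted p = 0.316, and with any 1 of 3-month-old mice 5, 7 or 9 or 24-month-old mice 32, 33, 34 or 35 left out the difference no longer passed the limit, at log2 fold changes between -0.53 and -0.41.

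Prdx4, the form of the secretory pathway (chromosome X, 155323918 to 155340754), had 3.34, 3.83, 4.13, 4.12 and 4.397 in the 3-month-old mice, 5.898, 4.76, 3.92, 4.62 and 4.95 in the 12-month-old mice and 5.67, 5.53, 4.06, 5.03 and 4.24 in the 24-month-old mice. Mice 31, 32 and 34 were above all 3-month-old mice, and mice 33 and 35 were within their range (log2 fold change 0.25 ± 0.10 SE, limma unadjusted p = 0.0392 and adjusted p = 0.301). The call ended when transcripts of all class codes were summed (log2 fold change 0.046), and with any 1 of 3-month-old mice 5, 6, 7 or 8 or 24-month-old mice 31, 32 or 34 left out the difference no longer passed the limit, at log2 fold changes between 0.20 and 0.26. Prdx2 was at 50.8 ± 4.03 and 49.9 ± 2.84 FPKM and Prdx6, the 1-cysteine form, at 29.3 ± 4.75 and 24.5 ± 8.505 (SD). Prdx6b, a copy of Prdx6, was listed near 0.

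Neither thioredoxin gene passed the limit. Txn1, which recycles the peroxiredoxins (chromosome 4, 57943373 to 57956411), had FPKM of 67.9, 61.7, 60.8, 58.8 and 61.4 in the 3-month-old mice, 64.02, 68.1, 55.8, 58.6 and 57.5 in the 12-month-old mice and 54.6, 63.6, 55.4, 59.6 and 58.5 in the 24-month-old mice. The ages overlapped (log2 fold change -0.089 ± 0.066 SE, limma unadjusted p = 0.206 and adjusted p = 0.587). Txnrd1, its selenium-dependent reductase, had means of 26.5 ± 6.397 and 23.7 ± 3.69 FPKM (SD), with mouse 5 the highest of the 15 mice at 37.3.

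Catalase was higher at 24 months. Cat, the peroxisomal enzyme that splits hydrogen peroxide (chromosome 2, 103453849 to 103485807), had FPKM of 327, 283, 163, 303 and 305 in the 3-month-old mice, 325, 168, 410.2, 168 and 188 in the 12-month-old mice and 415, 319, 553, 424 and 479.9 in the 24-month-old mice. Mouse 32 was the only 24-month-old mouse within the 3-month range, which mouse 5 tops, and at 12 months mice 18, 20 and 21 were at the level of mouse 7 while mouse 17 was near mouse 5 and mouse 19 above it. The mean was 276 ± 64.96 at 3 months and 438 ± 86.3 at 24 months (SD), log2 fold change 0.68 ± 0.23 SE, limma unadjusted p = 0.0135 and adjusted p = 0.19. With each mouse left out in turn the log2 fold change stayed between 0.50 and 0.79 and past the unadjusted limit.

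The level of Cat rests on the sum of its transcripts. In 9 mice the annotated transcript ENSMUST00000028610 held the largest share of the FPKM, at 56.5% to 99.7%, and in 6 mice the assembled transcript MSTRG.20204.1 did, at 52.6% to 98.5%. Both kinds of mice occurred at every age. In mice 31 and 32 the annotated transcript was listed at 0, and in mice 33, 34 and 35 the assembled transcript was at or near 0. Summed over annotated transcripts alone the difference between 24 and 3 months was -0.27 (unadjusted p = 0.869). In covered bases as a share of the aligned bases, which are not divided by transcript length, the log2 fold change of Cat was 0.70.

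**Figure D3:**
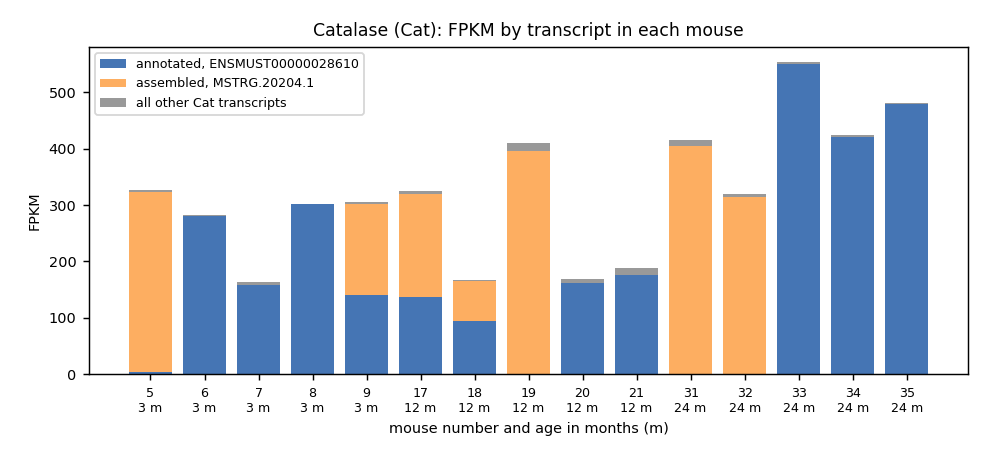
FPKM of Cat (y axis) in each of the 15 mice, stacked by transcript; blue is the annotated transcript, orange the assembled one and gray the sum of all others. The main transcript changes from mouse to mouse within every age, while the sums of the 24-month-old mice lie between 319 and 553.

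The superoxide dismutases did not pass the limit between 24 and 3 months. Sod1, the cytosolic copper-zinc enzyme, had 102 ± 17.8, 139 ± 27.2 and 107 ± 15.8 FPKM at 3, 12 and 24 months (SD). Sod3, the extracellular enzyme, had 67.7 ± 5.98 and 72.3 ± 11.1 at 3 and 24 months. For Sod2, the mitochondrial manganese enzyme, the values were 19.8 ± 5.09 and 19.2 ± 3.504.

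In the NRF2 pathway, Hmox1 was lower at 24 months. Hmox1, heme oxygenase 1 (chromosome 8, 75093611 to 75100589), had FPKM of 105, 39.5, 13.6, 12.4 and 22.4 in the 3-month-old mice, 6.45, 5.16, 13.2, 15.7 and 8.04 in the 12-month-old mice and 8.69, 9.91, 8.79, 10.3 and 10.2 in the 24-month-old mice. Mouse 5 stood far above all others, mouse 6 followed, and even the lowest 3-month-old mouse was above the highest 24-month-old mouse. Hmox1 was the 1 of 54 members (1.85%) whose 3- and 24-month values did not overlap, beside 4.73% of all genes. It had log2 fold change -1.45 ± 0.51 SE, limma unadjusted p = 0.0175 and adjusted p = 0.214. Without mouse 5 the log2 fold change was -0.98 (unadjusted p = 0.0102).

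**Figure D4:**
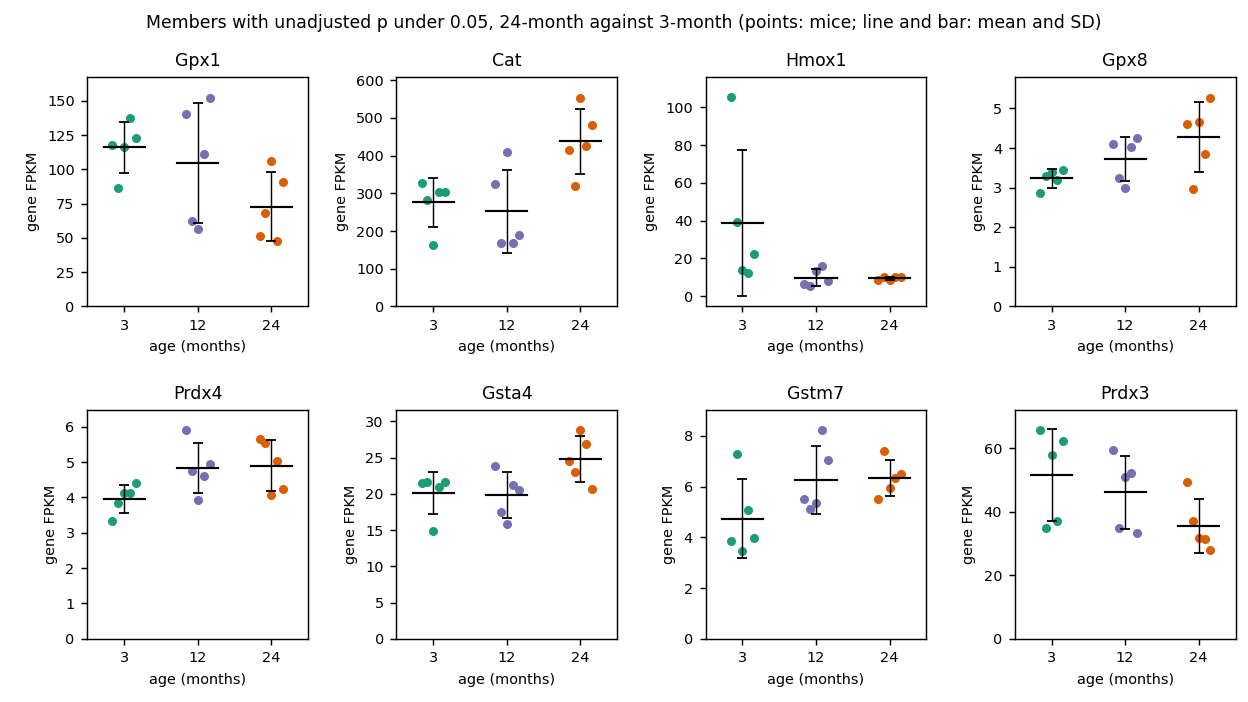
Gene FPKM of the 8 members with an unadjusted p under 0.05 between 24 and 3 months, by age. Points are mice, horizontal lines means and vertical bars SD (5 mice per age). In FPKM only Hmox1 shows no overlap between 3 and 24 months, and its 3-month mean of 38.7 includes mouse 5 at 105.

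Nqo1, a quinone reductase and a classical NRF2 target, was the most abundant of the 4 by the mean of all mice, with 28.1, 26.9, 18.8, 21.3 and 17.97 in the 3-month-old mice, 22.7, 20.01, 7.39, 25.5 and 24.01 in the 12-month-old mice and 26.3, 33.9, 29.3, 27.5 and 22.4 in the 24-month-old mice. Mouse 19 was the lowest, and 3- and 24-month values overlapped (log2 fold change 0.30 ± 0.15 SE, limma unadjusted p = 0.0728 and adjusted p = 0.395). Nfe2l2 itself had means of 17.7 ± 6.57 and 15.2 ± 4.56 FPKM and Keap1 5.65 ± 0.464 and 5.09 ± 1.401 (SD). Neither passed the limit (log2 fold change -0.19 ± 0.24 SE, limma unadjusted p = 0.457 and adjusted p = 0.736 for Nfe2l2).

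The limits of these calls were as follows. With a library covariate, the sum of the log values below the 75th percentile, 2 members were higher and 1 lower, of the 8 only Cat and Gpx1 passed, and Hmox1 was at a log2 fold change of -0.92 (unadjusted p = 0.130). The number of higher members, 5, became 3 without 3-month-old mouse 7 or 8 and 2 without 24-month-old mouse 31, 33 or 34.

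Some NRF2-related members were high in the same young mouse and others were not. In 3-month-old mouse 5, Hmox1 was at 105 FPKM against a median of 10.2 over the other 14 mice, Gclc at 91.6 against 39.1, Gstp2 at 67.5 against 29.03 and Txnrd1 at 37.3 against 23.2. Gss, Gstm1, Prdx1 and Prdx3 were also highest there, so 8 of the 45 members with at least 1 FPKM had their highest value of all 15 mice in it (17.8%, beside 6.70% of all genes at that level). In FPKM, Nqo1, Gclm and Gsr ranked 3, 4 and 5 of 15 there. Covered bases per megabase of aligned bases are not divided by transcript length. By that measure Gclm (258.7, against at most 237.7) and Nqo1 (57.97, against at most 56.97) were highest in mouse 5. Gsr was not, and Gstm1, highest there in FPKM, was not either. In FPKM, 5 members, Gpx3, Gpx8, Gstt2, Gstt3 and Prdx4, had their lowest value of all mice in mouse 5 (11.1%, beside 14.1% of all genes). Within the 3-month group it was the highest mouse for 18 of these 45 members (40%), beside 16.8% of all genes at that level, and the other 4 mice for 4 to 9 members each. The mouse was singled out after its values were seen, and no test was applied.

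Genes of other lists were on both sides in this mouse. Slc7a11, the cystine importer, was at 0.349 against a median of 0.0542 FPKM, Srxn1, sulfiredoxin, second of the 15 mice at 10.5 against 2.62, and Osgin1 at 12.7 against 5.16. Of the 16 other NRF2 targets listed, 3 were highest in it (18.8%), 8 were above the median of the other mice and 8 below, and 6 of the latter (Aox1, Ephx1, Cbr1, Blvra, Blvrb and Abcc3) ranked 12 to 15 of 15. The heat-shock genes Hspa1a and Hspa1b were there at 22.8 and 31.1 FPKM against medians of 3.12 and 4.05, and the glutathione-degrading Chac1 at 2.25 against 0.396. Their part in the high NRF2-related values was not tested.

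Circular RNAs gave a second readout from the same libraries. Of the 11929 circular RNAs deposited, 11 came from 9 members. Exonic circles join the end of a downstream exon to the start of an upstream exon, and intronic ones (ciRNA) are introns that keep a closed form. The back-splice junctions of the exonic circles of Gclc and Cat, built from the GENCODE M21 transcripts (build GRCm38), are shown because the Gclc circles follow the high young mouse. The last 20 bases of the downstream exon are in lower case and the first 20 of the upstream exon in capitals, 5′ to 3′ on the strand of the gene.
Gclc circRNA9245: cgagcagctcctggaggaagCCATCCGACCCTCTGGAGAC
Gclc circRNA8051: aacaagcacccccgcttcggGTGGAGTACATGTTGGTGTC
Cat circRNA3614: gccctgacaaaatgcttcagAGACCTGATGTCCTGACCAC

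Gclc circRNA9245 (chr9:77776126-77786849, plus strand) holds exons 3 to 9 of ENSMUST00000034905 and circRNA8051 (chr9:77775079-77779635) exons 2 to 4, all coding. The intronic Gclc ciRNA589 (chr9:77786850-77787272) starts at the first base of intron 9, next to the end of circRNA9245. Cat circRNA3614 (chr2:103467077-103476920, minus strand) holds exons 2 to 8 of ENSMUST00000028610. The ciRNAs of Sod1 (intron 2), Gpx3 (intron 2) and Nfe2l2 (intron 4) span their introns from end to end.

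The estimated counts of Gclc circRNA9245 were 12042, 3391, 3249, 4175 and 3301 in the 3-month-old mice, 3052, 2688, 3067, 2404 and 3142 in the 12-month-old mice and 4497, 3531, 2773, 3418 and 2663 in the 24-month-old mice. Mouse 5 stood far above every other mouse. circRNA8051 had 2136, 739, 739, 685 and 697 at 3 months and 576 to 1113 at 24 months, and ciRNA589 had 1370, 288, 183, 412 and 213 at 3 months and 162, 204, 96, 186 and 148 at 24 months. The estimated counts of all circles summed to between 6974473 and 9889878 per mouse, and how they were estimated is not given in the sources used here, so they are not read as numbers of junction reads.

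**Figure D5:**
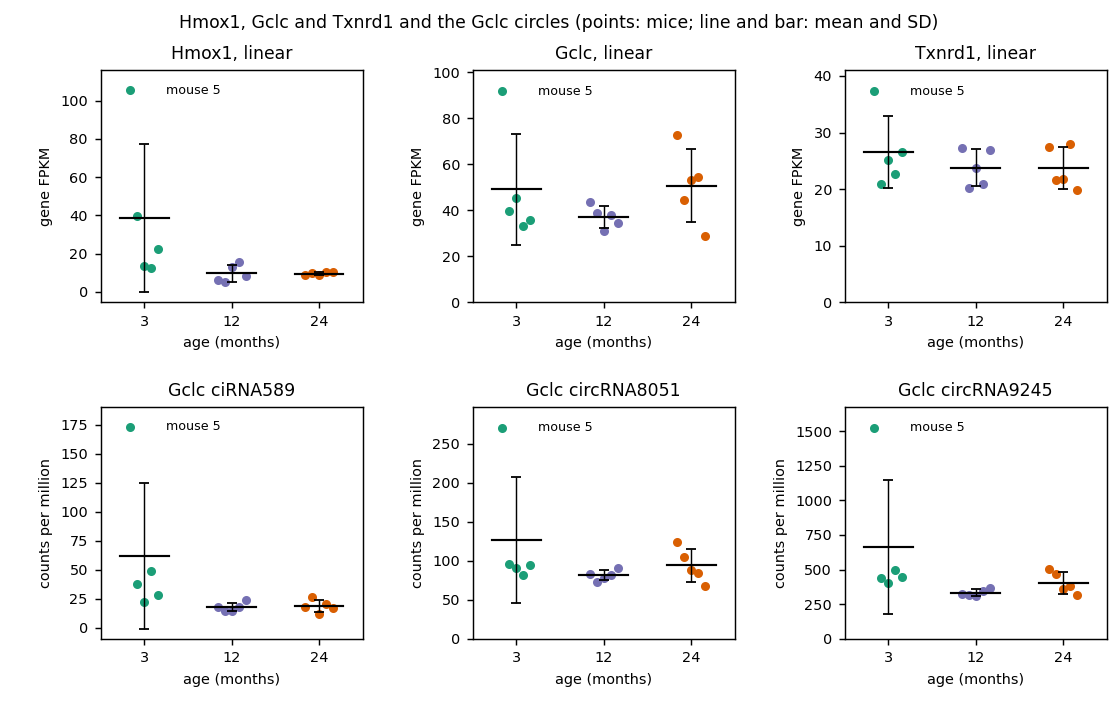
Gene FPKM of Hmox1, Gclc and Txnrd1 (top) and CPM (estimated counts scaled to the total of the circular RNA counts) of the 3 Gclc circles (bottom) by age; points are mice, lines means and bars SD (5 mice per age). In all 6 panels 3-month-old mouse 5 is the highest point, and for ciRNA589 the other 3-month-old mice also lie at or above 22.6 CPM.

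With edgeR's quasi-likelihood test between 24 and 3 months, 4 of the 11 member circles passed an unadjusted p under 0.05, beside 28.8% of the 11924 circles tested, and 3 passed an adjusted p under 0.05 (27.3%, beside 13.3% of all circles). Sod1 ciRNA187 was higher at 24 months, with 111, 127, 88, 105 and 128 at 3 months and 198, 211, 149, 205 and 163 at 24 months, and the ages did not overlap, also in CPM (1 of the 11 member circles, 9.09%, beside 11.2% of all circles, log2 fold change 0.57, edgeR adjusted p = 0.0205). Gpx3 ciRNA907 was lower, with 2466, 3032, 2333, 2723 and 1762 and 1630, 2215, 1525, 2088 and 1784, and in CPM mouse 32 alone was within the range of the young, 239 to 395, while the other 24-month-old mice were at 182 to 232 (log2 fold change -0.56, edgeR adjusted p = 0.0269). Linear Sod1 and Gpx3 did not pass the limit in the same mice.

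Gclc ciRNA589 was lower at 24 months (log2 fold change -1.78, edgeR adjusted p = 0.0321). Without mouse 5 the log2 fold change was -0.93 with an adjusted p of 0.0192. For circRNA9245 the log2 fold change of -0.79 (edgeR unadjusted p = 0.0348, adjusted p = 0.139) became -0.22 without mouse 5 (unadjusted p = 0.125). DESeq2 called the same 3 circles at an adjusted p under 0.05. The adjusted p of ciRNA187 passed 0.05 without mouse 8 (0.0509), that of ciRNA907 without mouse 6, 8, 31, 33, 34 or 35 (up to 0.0742), and that of ciRNA589 without mouse 31, 33, 34 or 35 (up to 0.0819).

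The circle of Cat had 9187, 7314, 8563, 7811 and 6831 at 3 months and 11255, 9226, 8984, 9382 and 9067 at 24 months (log2 fold change 0.11, edgeR adjusted p = 0.489). Linear Cat was at a log2 fold change of 0.68 by gene sum (limma adjusted p = 0.19) and at -0.27 over annotated transcripts alone. The circular and linear differences were not compared directly. Prdx1, Gss, Gstcd, Gpx8 and Nfe2l2 each hosted 1 circle, and none of these passed the limit. The lowest, of Gpx8 and Nfe2l2, held 2 to 28 estimated counts per mouse.

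The 12-month-old mice were compared with the 3-month-old mice in the same way, on the same 3-month mice. Of 54 members, 8 passed an unadjusted p under 0.05 (14.8%, beside 14.3% of 31637 genes tested by limma), with 6 higher (11.1%, beside 11.4%) and 2 lower (3.7%, beside 2.9%), and none at an adjusted p under 0.05 (0.25% of all genes, with 0.0537% lower). None had FPKM values that did not overlap, beside 4.11% of all genes. Of all calls 79.8% were higher, and 68.7% with the library covariate. Higher were Gstm4, Gstp3, Gsta1, Sod1, Gstt2 and Prdx4, and lower Hmox1 and Prdx6. Sod1 was at 85.05 to 122 FPKM at 3 months and 109 to 176 at 12 months (log2 fold change 0.43 ± 0.16 SE, limma unadjusted p = 0.0243 and adjusted p = 0.269). Gstm4, a mu enzyme, was at 1.09 to 3.74 and 3.02 to 3.99 FPKM (log2 fold change 0.64 ± 0.21 SE, limma unadjusted p = 0.013 and adjusted p = 0.214).

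Gsta1, a close copy of Gsta2, was at 0.543 to 1.02 and 0.685 to 2.31 FPKM at 3 and 12 months, and Gstp3 at 0.0404 to 0.496 and 0.473 to 1.26. Gstt2, a theta enzyme, was at 21.2 to 43.4 and 34.4 to 47.9, and Prdx6 at 25.1 to 37.2 and 20.8 to 28.03. Hmox1 was at 5.16 to 15.7 FPKM at 12 months, and mice 19 and 20 overlapped the young (log2 fold change -1.53 ± 0.56 SE, limma unadjusted p = 0.022 and adjusted p = 0.26). The number of lower members, 2, became 0 without 12-month-old mouse 18 and 1 without mouse 5, 7, 17 or 21, and that of higher members, 6, became 3 without mouse 17. With 1 of the 10 mice left out in turn, the calls of Gstt2 and Prdx4 were each lost in 8 fits, those of Sod1 and Prdx6 in 5, that of Gsta1 in 3 and that of Hmox1 in 1.

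Between 24 and 12 months, 8 of 53 members passed an unadjusted p under 0.05 (15.1%, beside 6.43% of 32282 genes tested), 3 higher (5.66%, beside 3.07%) and 5 lower (9.43%, beside 3.36%), and none at an adjusted p under 0.05 in limma, where the smallest adjusted p was 0.712 and 1 gene of all passed, a lower one (0.0031%). With the limit on the fold change none passed either (0.17% of all genes, and 0.0651% higher). Cat, Gsta4 and Gstm2 were higher at 24 than at 12 months, and Gstm4, Sod2, Prdx5, Gsto2 and Sod1 lower. With libraries rescaled to the same total (TPM), 5 members were higher and 2 lower, and of all calls 66.2% were higher, instead of 47.7%. Cat was at 168 to 410.2 and 319 to 553 FPKM (log2 fold change 0.88 ± 0.28 SE, limma unadjusted p = 0.0119 and adjusted p = 0.714).

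Sod2 was the 1 of 53 members whose 12- and 24-month values did not overlap (1.89%, beside 1.07% of all genes), at 22.9 to 27.7 and 15.5 to 22.8 FPKM (log2 fold change -0.36 ± 0.12 SE, limma unadjusted p = 0.0138 and adjusted p = 0.714). In covered bases as a share of the aligned bases, which are not divided by transcript length, the direction of Sod2 turned. The log2 fold change was then 0.38 (limma unadjusted p = 0.281). In 11 mice the annotated transcript of Sod2 held 65.4% to 95.8% of its FPKM, and in 4 mice an assembled transcript with a length of 21989 bases, MSTRG.14838.1, held the largest share. Of Gstm2 the log2 fold change was 0.28, of Prdx5 -0.34, of Sod1 -0.37, of Gstm4 -0.62, of Gsta4 0.31 and of Gsto2 -0.24. The number of lower members, 5, became 3 without mouse 17, 19, 33 or 35, and that of higher members, 3, became 5 without mouse 17. The calls of Gsto2 and Sod1 were each lost in 6 of the 10 fits with 1 mouse left out, and that of Gsta4 in 4.

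By transcript, the members had 243 entries, of which 182 were annotated and 50 were assembled new splice forms, and the latter held 31.6% of the members' FPKM. Of 231 transcripts tested between 24 and 3 months, 16 passed an unadjusted p under 0.05 (6.93%, beside 7.9% of 124719 transcripts), 9 higher (beside 5.43%) and 7 lower (beside 2.47%), and none an adjusted p under 0.05 in limma. Beside those of Gpx1 and Gpx8 they included Hmox1 ENSMUST00000005548, at a mean of 22.6 FPKM at 3 months and 7.64 at 24 months. Nqo1 ENSMUST00000003947 was at 20.5 and 26.5, and Gsta2 ENSMUST00000034902 at 8.70 and 24.9 FPKM.

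Genes that surround the members in the pathway were taken from lists, which were chosen with earlier results of these data known. They were tested in the same fit between 24 and 3 months. Among 11 genes of glutathione breakdown, 2 were higher (18.2%) and 0 lower at an unadjusted p under 0.05, beside 11.4% and 3.47% of all genes, the shares for each list of this fit. Oplah, 5-oxoprolinase, was at 46.00 to 59.9 FPKM at 3 months and 58.9 to 71.4 at 24 months, log2 fold change 0.40 ± 0.089 SE, adjusted p = 0.068. Ggt7 was at 0.276 to 0.577 FPKM at 3 months and 0.525 to 1.03 at 24 months, log2 fold change 0.30 ± 0.10 SE, adjusted p = 0.191. The most abundant of the list, the tubular gamma-glutamyl transferase Ggt1, is not among them.

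Of 16 other NRF2 targets, 6 were higher (37.5%, beside 11.4% of all genes) and 1 lower (6.25%, beside 3.47%), and 3 of the higher passed an adjusted p under 0.05 (18.8%, beside 1.22%). Ephx1, microsomal epoxide hydrolase, was at 12.01 to 21.5 FPKM at 3 months and 32.8 to 38.9 at 24 months, log2 fold change 0.96 ± 0.15 SE, adjusted p = 0.0216. Blvrb, a biliverdin and flavin reductase, was at 3.86 to 4.67 FPKM at 3 months and 5.82 to 6.58 at 24 months, log2 fold change 0.43 ± 0.066 SE, adjusted p = 0.0219. Abcc4, an efflux pump for organic anions, was at 7.49 to 10.7 FPKM at 3 months and 12.3 to 20.5 at 24 months, log2 fold change 0.73 ± 0.13 SE, adjusted p = 0.0346. For none of these 3 did the ages overlap (beside 4.73% of all genes without overlap), and the 1 lower gene was Osgin1. With annotated transcripts alone Abcc4 was at a log2 fold change of 0.033 and Ephx1 at 0.98, both with an unadjusted p above the limit (0.107 and 0.0532). The median of the list was 0.15 on the log2 scale, beside 0.020 over all genes.

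Cystine and glutamate uptake had 1 of 5 genes higher and 1 lower. Slc3a2, a heavy chain of amino acid exchangers, was at 51.2 to 68.4 FPKM at 3 months and 39.03 to 48.04 at 24 months, log2 fold change -0.39 ± 0.10 SE, adjusted p = 0.0934. Slc7a9, the cystine transporter of the brush border, was at 25.3 to 28.2 FPKM at 3 months and 29.5 to 36.03 at 24 months, log2 fold change 0.26 ± 0.066 SE, adjusted p = 0.0999. Neither overlapped between the ages (beside 4.73% of all genes without overlap), and the direction of Slc7a9 turned with annotated transcripts alone.

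Of 16 other thiol redox genes, 3 were higher and 1 lower. Glrx5, a glutaredoxin of iron-sulfur cluster assembly, was at 0.554 to 32.5 FPKM at 3 months and 19.9 to 35.1 at 24 months, log2 fold change 2.69 ± 0.70 SE, adjusted p = 0.102. Txnrd3, a further thioredoxin reductase, was at 3.398 to 4.25 FPKM at 3 months and 3.97 to 6.49 at 24 months, log2 fold change 0.40 ± 0.12 SE, adjusted p = 0.151, and Sesn1, a sestrin, was lower (4.96 to 6.27 FPKM at 3 months and 4.59 to 5.11 at 24 months, log2 fold change -0.22 ± 0.070 SE, adjusted p = 0.173). Glrx5 varied widely among the young mice and also at 12 months, at 0.328 to 39.6 FPKM.

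Oxidant sources had 5 of 15 genes higher (33.3%, beside 11.4% of all genes) and 0 lower (beside 3.47%), led by Duox1 and Nox1, which are NADPH oxidases below 1 FPKM, and Maoa, monoamine oxidase A. Duox1 was at 0 to 0.0201 FPKM at 3 months and 0.0417 to 0.146 at 24 months, log2 fold change 0.10 ± 0.026 SE, adjusted p = 0.112, and Maoa at 1.14 to 2.07 FPKM at 3 months and 1.85 to 2.38 at 24 months, log2 fold change 0.30 ± 0.12 SE, adjusted p = 0.261. In selenium supply, 2 of 7 were higher, Lrp8, a receptor of selenoprotein P (0.154 to 0.598 FPKM at 3 months and 0.494 to 1.48 at 24 months, log2 fold change 0.49 ± 0.16 SE, adjusted p = 0.174), and Pstk, a kinase of selenocysteine synthesis (4.09 to 4.59 FPKM at 3 months and 4.58 to 7.16 at 24 months, log2 fold change 0.24 ± 0.10 SE, adjusted p = 0.31). Of 7 membrane-bound and sigma transferases 1 was lower, Mgst3 (14.7 to 26.01 FPKM at 3 months and 12.8 to 20.8 at 24 months, log2 fold change -0.40 ± 0.18 SE, adjusted p = 0.334). Maoa passed the limit no longer with any 1 of 5 of the 10 mice left out (unadjusted p up to 0.0650), Pstk with any 1 of 8 (up to 0.0794) and Mgst3 with any 1 of 8 (up to 0.114). Pstk also missed it in 4 of 10 other settings (unadjusted p up to 0.390) and Mgst3 in 5 of 10 (up to 0.0573). No gene passed among 9 of NADPH supply and 9 regulators of NRF2.

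Other groups of genes differed between the same mice. The 12 stress response genes, which include heat-shock genes and Fos, summed to 655 to 993 FPKM at 3 months and 244 to 494 at 24 months, a log2 ratio of -1.44 (exact permutation test over 252 assignments, 2-sided p = 0.00794, the smallest it can give) and 8 of 12 were lower. Hspa8, a constitutive chaperone, made up most of this sum. It was at 579 to 897 FPKM at 3 months and 205 to 419 at 24 months, log2 fold change -1.43 ± 0.22 SE, limma adjusted p = 0.0216. Of 15 clock genes, 7 were higher and 4 lower. Nfil3 was at 5.74 to 11.7 FPKM at 3 months and 0.476 to 1.07 at 24 months, log2 fold change -2.41 ± 0.19 SE, adjusted p = 0.00458, and Arntl, which encodes a core clock factor, at 8.297 to 16.7 FPKM at 3 months and 0.5101 to 3.72 at 24 months, log2 fold change -2.51 ± 0.32 SE, adjusted p = 0.0146. The part of these differences in those of the members, Hmox1 among them, was not tested.

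Marker genes of other cells also moved. Leukocyte markers (10 genes, 6 higher, 0 lower) summed to 66.0 to 155 FPKM at 3 months and 112 to 216 at 24 months (log2 ratio 0.75, exact permutation p = 0.0317). Collecting duct markers (5 genes, 1 lower) summed to 60.8 to 159 and 43.1 to 78.5 (log2 ratio -0.78, exact permutation p = 0.0159). The largest part of this sum was Aqp2, at 25.9 to 134 and 17.9 to 51.7 FPKM. Slc26a4 was at 11.8 to 16.9 and 7.57 to 10.8, while Fxyd4, Slc4a1 and Atp6v1g3 overlapped between these ages. Endothelial markers (3 genes) summed to 31.3 to 49.1 and 41.3 to 60.7 (log2 ratio 0.28, exact permutation p = 0.0476). Proximal tubule markers, of which 3 of 8 were lower (Slc5a2, Slc5a10 and Slc5a12, named after their values were seen), had a log2 ratio of their sums of -0.12 (exact permutation p = 0.167). For the thick limb and distal, podocyte, fibroblast, red cell, adipocyte and smooth muscle lists the exact permutation p was 0.524, 0.0556, 0.143, 0.238, 0.246 and 0.19. Of the 6 tubular injury genes none passed the limit. None of the marker genes was at 0 in all mice, and the part of cell type shares in the members' differences was not tested.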

How the data were processed

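Kidney RNA of 15 mice was sequenced, 1 library per mouse. Per the methods, reads were trimmed with Cutadapt, aligned to GRCm38 with Ensembl release 88 and assembled with StringTie, while the submitters' processing notes name TopHat2, TopHat and StringTie, without versions. Library preparation was by oligo(dT) in the methods and by ribosomal RNA depletion per the labels. The FPKM values were deposited by the authors per transcript and mouse, together with the coverage, the mean read depth per base of the transcript. The deposited circular RNA table holds an estimated count per circle and mouse, of which 83.6% to 94.6% were not whole before they were rounded here. A further 15 columns, the circular RNA FPKM of the same mice, were not used.

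Gene values were sums of FPKM over transcripts of class code =, c, j or o (annotated, contained, new splice form, exon overlap). Differences were fitted with limma 3.58.1 (R 4.3.3, variance trend) on log2(FPKM + 1), over genes above 0 in at least 1 mouse compared, with Benjamini-Hochberg adjustment over all of them. The pseudocount makes fold changes of low genes smaller. The DESeq2 test of the methods needs counts, so it was not applied to FPKM. Circles above 0 in at least 5 mice were tested with edgeR 4.0.16 (quasi-likelihood, TMM), and with DESeq2 1.42.0 as an alternative. Summed marker lists were compared by 2-sided exact permutation. On simulated data with a log2 change of 1.5, limma recovered 194 of 200 changed genes among 33058 at an unadjusted p under 0.05. At an adjusted p under 0.05 it recovered 179, and 4.84% of the unchanged genes were called unadjusted. With a log2 change of 1.58, edgeR recovered 200 of 200 changed circles among 11924, and 196 adjusted. Most member differences were smaller, and recovery at such sizes was not simulated.

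Values of every mouse are given for members with an unadjusted p under 0.05 between 24 and 3 months and for the most abundant member of each role or transferase class. Genes of other lists are named up to 3 per list by smallest p. Members and lists were chosen with earlier results of these data known. The alternatives were another pseudocount, filter, scaling (TPM), choice of class codes, a fit of all mice, a library covariate, and each mouse left out. Covered bases as a share of aligned bases and a fit without the variance trend were added after the data were seen. The labels do not say more of the mice than their age, sex and strain, so no litter, cage or batch entered the fits. The limma and edgeR p-values weigh the difference between ages against the spread between mice of the same age. Sequencing depth is given as aligned gigabases, from coverage times transcript length.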

Additional observations from a re-analysis of the deposited data

Results flagged for a closer look

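The values named here were each far from the other 4 mice of the same age by Dixon's criterion for 5 samples (gap over range above 0.71). Chance alone flags about 1 in 20 groups. Over the 45 members with at least 1 FPKM, 8 of 135 groups were marked, where chance gives 6.75, and over the 11 circles 4 of 33, where chance gives 1.65.

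At 3 months, Gclc was at 91.6 FPKM in mouse 5, against 33.02 to 45.1 in the others. Mouse 7 was low for Cat, at 163 against 283 to 327 FPKM, and for Gsta4, at 14.9 against 20.99 to 21.7. At 12 months, Nfe2l2 was at 8.15 FPKM in mouse 18, against 22.3 to 27.8. Mouse 19 was low for Keap1, at 4.34 against 5.17 to 5.42, and high for Gclm, at 57.6 against 27.2 to 35.1. Prdx2 was at 31.6 FPKM in mouse 20, against 47.4 to 53.8. At 24 months, Gstz1 was at 44.0 FPKM in mouse 32, against 34.1 to 36.1.

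Of the circles, the 3 of Gclc were high in 3-month-old mouse 5, in CPM, estimated counts scaled to the total of the circular RNA counts. The intronic ciRNA589 was at 173 against 22.6 to 48.9, circRNA8051 at 270.1 against 81.3 to 96.2, and circRNA9245 at 1523 against 401 to 495. The Nfe2l2 circle ciRNA504 was at 0.813 in mouse 9 against 2.34 to 2.47, which rests on 6 estimated counts.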

How the results depend on the processing

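No paired analysis was possible because the ages share no replicate number. Gpx1, Cat and Hmox1 kept their direction and passed the unadjusted limit with each of the 10 mice left out. Depth limits the members under 1 FPKM. The causes of the changes listed next were not tested.

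Between 24 and 3 months, the median log2 fold change of the members was 0.070 with a pseudocount of 0.1, 0.068 over genes with a mean of at least 1 FPKM and 0.079 in TPM. The count of higher members was 3 with annotated transcripts (class code =) alone, 2 with the library covariate, 0 at an adjusted p under 0.05 and 0 with the fold limit, and that of lower members 1 with the library covariate, 0 adjusted and 1 with the fold limit. With 1 mouse left out, 2 to 6 members were higher. Between 12 and 3 months the lower members numbered 1 in a fit of all 15 mice and 1 with the library covariate, and higher and lower ones 0 and 0 adjusted and 0 and 1 with the fold limit. Leaving out 1 mouse gave 3 to 7 higher and 0 to 3 lower. Between 24 and 12 months TPM gave 5 higher, 2 lower and a median of 0.036, annotated transcripts alone 3 lower, and both the adjusted and the fold limit 0 higher and 0 lower. Leaving out 1 mouse gave 2 to 5 higher and 3 to 6 lower. Of the member transcripts 0 passed adjusted and 2 with the fold limit.

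Directions reversed with annotated transcripts alone for Cat (-0.27), Gpx8 (-0.21), Gpx3 (-0.32), Gstm1 (-0.26), Gstz1 (-0.18) and Slc7a9 (-0.24), and for Cat between 24 and 12 months (-0.0074). With the library covariate Gpx3 was at -0.14 and Gss at 0.0052. In covered bases as a share of aligned bases, Prdx5 was at -0.024 and Sod2, between 24 and 12 months, at 0.38. With 1 mouse left out, Gpx3 ranged from -0.11 to 0.060, Gstm1 from -0.040 to 0.22, Prdx5 from -0.076 to 0.096 and Gstp1 from -0.12 to 0.22.

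For marker sums, podocytes were at a log2 ratio of 0.28 in TPM (exact permutation p = 0.0317). With 1 mouse left out the ratios were 0.21 to 0.33 for podocytes, 0.19 to 0.36 for endothelium, 0.17 to 0.42 for fibroblasts and 0.63 to 0.98 for leukocytes. The leukocyte p then exceeded 0.05 without mouse 5, 6, 7, 8, 31, 32 or 35, and the endothelial p without mouse 5, 6, 7, 8, 33, 34 or 35.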

Other observations

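Gpx6, a peroxidase described chiefly from olfactory tissue, had FPKM of 4.19, 18.4, 5.41, 5.30 and 14 in 3-month-old mice 5 to 9, of 14.1, 12.4, 3.45, 5.82 and 20.3 in 12-month-old mice 17 to 21, and of 17.3, 20.6, 15.1, 20.1 and 4.24 in 24-month-old mice 31 to 35. Mice 5, 7, 8, 19, 20 and 35 were at 5.82 or below and the other 9 at 12.4 or above, with both levels at every age. The division was noticed after the values were seen and was not tested.

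The SD of Prdx1 was 30.97 FPKM at 3 months, 5.30 at 12 months and 2.51 at 24 months, around means of 141, 135 and 134. In covered bases per megabase of aligned bases, not divided by transcript length, the narrowing from 12 to 24 months was not seen. The values were 217 to 330 at 3 months, 232 to 265 at 12 months and 228 to 272 at 24 months. The difference in spread was not tested. Over the 45 members with at least 1 FPKM the median SD within an age was 0.27 on the log2 scale, beside 0.25 over all genes at that level.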
